A study of Bos taurus with 2 samples.

Results

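The 4 genes described here, KRT7, KRT8, KRT18 and KRT19, encode the keratins of simple epithelia. They were taken by symbol from the feature list that both libraries share, where they are 4 of 35643 features (KRT7 is ENSBTAG00000016165, KRT8 is ENSBTAG00000000836, KRT18 is ENSBTAG00000001517 and KRT19 is ENSBTAG00000004905). All 4 were detected in both libraries. Levels are given as CPM, the unique molecular identifiers (UMIs) of a gene summed over a set of barcodes, divided by all UMIs of that set and scaled to 1000000. Each kept barcode is taken as a nucleus or, where its total was low, as a barcode of unknown content.

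Keratins are intermediate filament proteins that assemble only as pairs of a type II and a type I chain. KRT8 and KRT7 are type II chains, and KRT18 and KRT19 are type I chains. KRT8 pairs chiefly with KRT18, and the filaments they form attach to desmosomes and carry mechanical load across the sheet of cells. In the mammalian blastocyst the trophectoderm, the outer layer that pumps fluid and later forms the placenta, is the first epithelium, and KRT8 and KRT18 are widely used as its markers. The hypoblast is the extraembryonic endoderm and the epiblast the founder of the embryo proper. Keratin messenger RNA is translated in the cytoplasm, so a preparation of nuclei is expected to hold only part of it.

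Both groups of bovine material, here compared, were labelled wild type (WT), and each is represented by 1 library. The blastoid library was made from 3L-blastoids, blastocyst-like structures that self-organise in microwells seeded with 8 bEPSCs, 8 bXENs and 16 bTSCs (names as in the labels), in medium with LIF, activin A and Chir99021. The labels state that iMEF feeder cells were depleted before seeding. The blastocyst library was made from day 8 blastocysts. Nuclei of both were isolated from frozen material. How many structures or embryos went into each library is not given in the labels. With 1 library per group there was no replicate check, so no p-value is given, and intervals are exact 95% intervals that cover counting error only.

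The libraries differed in depth. The blastoid library held 1957 barcodes and 7575395 UMIs, of which 1914 barcodes were kept. Of these, 286 had at least 4000 UMIs (deep) and 1628 had fewer (shallow). The blastocyst library held 944 barcodes and 7029253 UMIs, of which 827 were kept, 687 deep and 140 shallow. The share of UMIs from cytosolic ribosomal protein genes, whose messenger RNA is cytoplasmic, was 8.26% in the kept blastoid barcodes and 0.998% in the kept blastocyst barcodes. It reached 16.0% in shallow blastoid and 4.15% in shallow blastocyst barcodes, against 2.57% and 0.860% in deep ones. A single blastocyst barcode stood far apart, with 80592 UMIs against 34356 in the next deepest, 7.44% ribosomal protein UMIs, 795 UMIs of KRT18, 389 of KRT8, 178 of KRT19 and 0 of KRT7. Keratin ratios between blastocyst depth groups and between libraries are given with and without it; counts over gene lists and over all genes include it. The libraries shared 1 barcode sequence.

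Clusters were built without any keratin or marker gene and named from markers. In the blastocyst 395 nuclei were hypoblast-like, 238 trophectoderm-like and 73 epiblast-like, and 121 barcodes formed a shallow cluster with a median of 1783 UMIs. In the blastoid 154 nuclei were trophectoderm-like, 140 deep nuclei stayed unnamed and 1620 barcodes formed a shallow cluster with a median of 1926 UMIs. The trophectoderm regulator GATA2 was at 473 CPM in blastocyst trophectoderm-like nuclei and 7.28 CPM in hypoblast-like nuclei, and at 335 CPM and 48.0 CPM in the trophectoderm-like and unnamed nuclei of the blastoid. The unnamed blastoid nuclei were led by SRGAP3, MLLT3, DCC, LDB2 and NLGN1. HNF4A, a hypoblast marker, was at 566 CPM in epiblast-like and 547 CPM in hypoblast-like nuclei, so this marker did not separate them.

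In the blastocyst, KRT8, KRT18 and KRT19 were higher in trophectoderm-like than in hypoblast-like nuclei, and KRT7 was lower. KRT8 was at 453 CPM (426 to 481) in trophectoderm-like nuclei, 44.0 CPM (37.1 to 51.7) in hypoblast-like nuclei and 50.5 CPM (35.9 to 69.1) in epiblast-like nuclei. The trophectoderm-like level was 10.3-fold (8.65 to 12.3) the hypoblast-like one, while the intervals of the hypoblast-like and epiblast-like levels overlapped. KRT7, the other type II chain, was at 7.70 CPM (4.57 to 12.2) in trophectoderm-like, 17.6 CPM (13.3 to 22.7) in hypoblast-like and 11.7 CPM (5.33 to 22.1) in epiblast-like nuclei. Its ratio between trophectoderm-like and hypoblast-like nuclei was 0.438 (0.243 to 0.754), on 18 and 58 UMIs. Its low counts left neighbouring levels unresolved: the epiblast-like interval overlapped both others. At a clustering resolution of 1, KRT7 was between 5.92 and 10.5 CPM in 2 trophectoderm-like clusters and at 6.71 and 17.1 CPM in 2 hypoblast-like ones, and reached 23.7 CPM in an unnamed cluster of 117 nuclei. The ratio of KRT7 between the named classes was then 0.551, with an interval (0.289 to 1.02) that held 1.

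The type I chains followed KRT8. KRT18 was at 831 CPM (795 to 869) in trophectoderm-like, 117 CPM (106 to 129) in hypoblast-like and 95.9 CPM (75.3 to 120.3) in epiblast-like nuclei, and the first was 7.10-fold (6.36 to 7.94) the second. KRT19, a type I chain that can pair with KRT7 or KRT8, was at 120.3 CPM (107 to 135) in trophectoderm-like, 19.1 CPM (14.7 to 24.4) in hypoblast-like and 20.7 CPM (11.8 to 33.7) in epiblast-like nuclei, a ratio of 6.30 (4.78 to 8.41) for the first over the second. Of the 4 keratins, 3 were at least 2-fold higher in trophectoderm-like nuclei and KRT7 was at least 2-fold lower. Among 13331 genes with at least 20 UMIs in the compared sums, 12.6% were at least 2-fold higher and 17.3% at least 2-fold lower, and the median log2 ratio of all of them was -0.21. The ribosomal protein share was 0.756% in trophectoderm-like and 0.781% in hypoblast-like nuclei, and per ribosomal protein UMI the sum of the 4 keratins was still 7.38-fold higher in the former.

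Counts per nucleus show the same division. A trophectoderm-like nucleus of the blastocyst held 8.16 KRT18 UMIs on average, with a median of 7, a lowest count of 0 and a highest of 38. Hypoblast-like and epiblast-like nuclei held 0.977 and 1.01 KRT18 UMIs, with medians of 1, and no nucleus of either exceeded 5. Of trophectoderm-like nuclei 97.1% had a KRT18 UMI and 91.6% a KRT8 UMI, against 60.8% and 29.9% of hypoblast-like nuclei. The variance of the KRT18 count was 5.19 times its mean over trophectoderm-like nuclei and 1.09 times its mean over hypoblast-like nuclei. A value of 1 is that of counts scattered around a common mean. At a given relative spread the value rises with the mean, and the means were 8.16 and 0.977 UMIs. It therefore does not rank the spread of these classes. Over epiblast-like nuclei the value was 1.11 for KRT18, 1.30 for KRT8 and 1.56 for KRT7, at means of 1.01, 0.534 and 0.123 UMIs. Whether those UMIs came from the nuclei or from free RNA in the droplets was not tested.

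**Figure D1:**
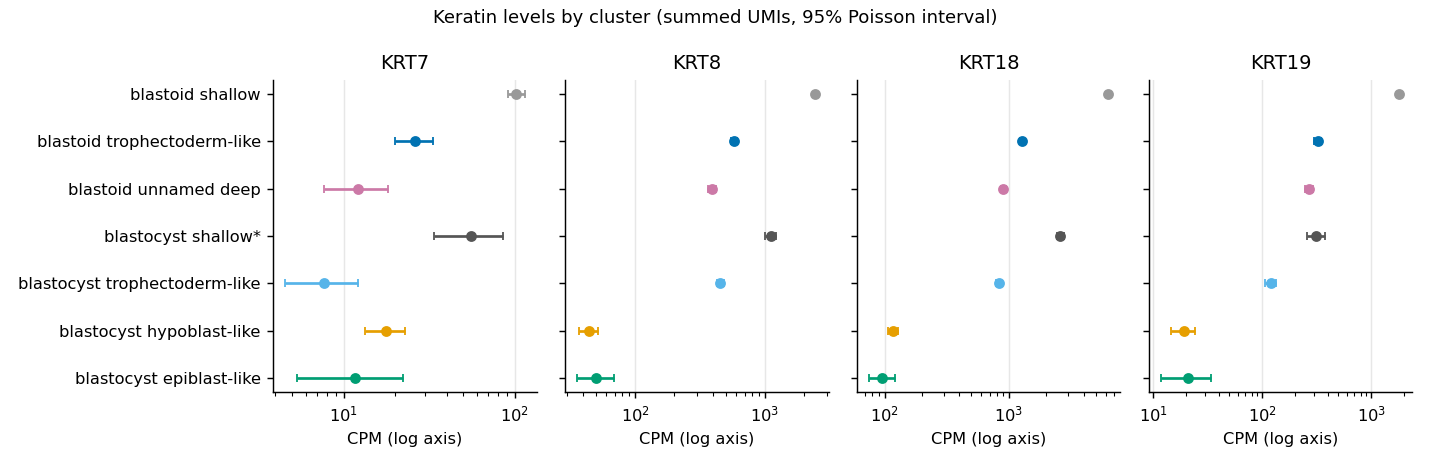
Level of each keratin in the 7 clusters, in CPM on a log axis, with points for summed UMIs and bars for the exact 95% Poisson interval; the asterisk marks the blastocyst shallow cluster without its deepest barcode. KRT8, KRT18 and KRT19 are at 453, 831 and 120.3 CPM in blastocyst trophectoderm-like nuclei and far lower in the other 2 named blastocyst clusters, whereas KRT7 is at 7.70 CPM in the former and 17.6 CPM in hypoblast-like nuclei.

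The blastoid did not show a division of that size between its deep clusters. KRT8 was at 577 CPM (547 to 608) in trophectoderm-like and 394 CPM (367 to 424) in unnamed nuclei, a ratio of 1.46 (1.34 to 1.60). KRT18 was at 1269 CPM (1225 to 1315) and 905 CPM (863 to 949), a ratio of 1.40 (1.32 to 1.49). KRT19 was at 322 CPM (300.2 to 346) and 268 CPM (246 to 293), a ratio of 1.20 (1.07 to 1.35). KRT7 was at 26.0 CPM (20.0 to 33.3) and 12.1 CPM (7.69 to 18.2), a ratio of 2.15 (1.31 to 3.63) on 63 and 23 UMIs. KRT7 alone was past 2-fold, where 16.9% of 13201 genes were. Deep nuclei were also gated: 138 had at least 3 UMIs of GATA2 and GATA3, and more of these than of GATA4 and HNF4A. They were set against 82 deep nuclei with 0 UMIs of these 4 genes, in place of the unnamed cluster. The summed keratins were then 1.10-fold (1.04 to 1.16) higher and the KRT19 ratio was 0.887 (0.773 to 1.02), on the other side of 1. A gate at 0 UMIs depends on depth, and summed keratin CPM fell with depth in the blastoid. It was 3010 at 4000 to 8000 UMIs and 1564 above 16000 UMIs. The part of depth in the gated ratios was not tested.

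Other epithelial genes did separate those clusters. Of 20 epithelial adhesion genes, 12 were at least 2-fold higher in the trophectoderm-like blastoid nuclei and 0 lower, with a median log2 ratio of 2.24 against -0.00 over all genes, of which 16.9% were higher and 19.5% lower. The splicing regulator ESRP1 was 7.56-fold (5.95 to 9.74) and the membrane protease ST14 7.28-fold (4.77 to 11.6) higher there. Of 18 desmosome and filament linker genes 14 were higher and 1 lower, with DSG3, a desmosomal cadherin, at 115 CPM against 16.3 CPM and EVPL, which links keratin to desmosomes, at 33.5 CPM against 5.27 CPM. DST, a linker found in hemidesmosomes and in non-epithelial cells, was the 1 lower gene, at 197 CPM against 479 CPM. Of 15 epithelial transcription factors 14 were higher, TP63 by 8.81-fold (6.40 to 12.4). Of the genes on this list 6 are trophectoderm markers that helped to name this cluster, so this count is no separate evidence. The 4 keratins, with a median log2 ratio of 0.52, differed between these clusters by less than the epithelial lists did.

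Keratin UMIs per blastoid nucleus place the unnamed cluster beside the shallow barcodes. Unnamed nuclei held 12.3 KRT18 UMIs each on average and shallow barcodes 12.2, a ratio of 1.01 (0.956 to 1.06), although the former had a median total of 10993.5 UMIs and the latter one of 1926. The ratios were 1.03 (0.939 to 1.13) for KRT19, 1.12 (1.04 to 1.21) for KRT8 and 0.824 (0.515 to 1.26) for KRT7. Trophectoderm-like nuclei held 19.9 KRT18 UMIs, 1.63-fold (1.57 to 1.70) the count in shallow barcodes, and 9.06 KRT8 UMIs, 1.90-fold (1.79 to 2.01). KRT7 was 2.05-fold (1.54 to 2.69) and KRT19 1.44-fold (1.33 to 1.55) that of shallow barcodes. All 4 keratins thus had more UMIs per barcode in trophectoderm-like nuclei than in shallow barcodes, whereas in unnamed nuclei the interval of the ratio lay above 1 for KRT8 alone.

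The shallow blastoid barcodes were close to uniform in keratin content. Every one of the 1620 held a KRT18 UMI, with a lowest count of 3, a median of 12 and a highest of 34, and the quartiles were 9 and 15. The variance was 1.30 times the mean for KRT18, 1.38 times for KRT8, 1.25 times for KRT19 and 1.09 times for KRT7. Over the 154 trophectoderm-like nuclei the same quantity was 4.98 for KRT18 and 3.47 for KRT8, and over the 140 unnamed nuclei 2.03 and 1.67. Depth was not matched between these classes: 0 of the 1620 barcodes and 147 of the 154 nuclei had at least 4000 UMIs. KRT18 counts rose with depth in both, with a Spearman rho of 0.35 across the shallow barcodes and 0.46 across the trophectoderm-like nuclei. The part of depth in the contrast was not tested. When the clustering resolution was raised, the shallow barcodes fell into 9 clusters, and KRT18 stayed between 5858 and 6699 CPM in all of them. In rank correlation across these barcodes KRT8 and KRT18 had a Spearman rho of -0.02, against 0.53 across blastoid and 0.47 across blastocyst trophectoderm-like nuclei. These correlations describe barcodes of 1 library that share its depth and its free RNA.

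By CPM, the pooled keratin level was higher in shallow than in deep barcodes in both libraries. In the blastoid KRT18 was at 6244 CPM in shallow and 1092 CPM in deep barcodes, 5.72-fold (5.54 to 5.91), KRT19 at 1808 and 292 CPM, 6.20-fold (5.83 to 6.59), KRT7 at 102 and 19.8 CPM, 5.15-fold (4.05 to 6.62), and KRT8 at 2445 and 489 CPM, 5.00-fold (4.76 to 5.25). All 4 passed 2-fold, as did 19% of 14571 genes, while 44.1% were at least 2-fold lower, and the median log2 ratio of all genes was -0.73. In the blastocyst KRT18 was at 2991 and 499 CPM, 5.99-fold (5.55 to 6.46), KRT8 at 1346 and 251 CPM, 5.36-fold (4.79 to 5.99), KRT19 at 379 and 82.7 CPM, 4.58-fold (3.69 to 5.64), and KRT7 at 52.2 and 13.7 CPM, 3.80-fold (2.04 to 6.61). Without the deepest barcode these ratios were 7.81 (7.22 to 8.45), 6.93 (6.17 to 7.77), 6.73 (5.38 to 8.36) and 3.76 (2.02 to 6.53) in the same order. The pooled blastocyst level rested on few barcodes: 10 of the 140 shallow ones held 64.1% of their KRT18 UMIs, and the median shallow barcode was at 829 CPM of KRT18 against 167 CPM in the median deep one. Again all 4 passed 2-fold, as did 25.3% of 13978 genes, while 6.05% were at least 2-fold lower, with a median log2 ratio of 0.26. Without the deepest blastocyst barcode the ratio of the summed keratins there went from 5.63 to 7.37. The ratio depended on the depth at which barcodes were split: with 2000 UMIs in place of 4000 the blastoid value was 2.60, and with 8000 UMIs the blastocyst value was 1.48, or 2.17 (2.06 to 2.29) without the deepest barcode.

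Counts per barcode differed less than CPM did. A shallow blastoid barcode held 20.7 UMIs of the 4 keratins together and a deep one 28.5, and 312 against 386 ribosomal protein UMIs. All remaining UMIs, mitochondrial ones aside, were 1582 against 14550. In the blastocyst the order was the other way, 9.79 keratin UMIs per shallow barcode and 8.09 per deep one, or 6.12 without the deepest barcode. Scaled to 1000 ribosomal protein UMIs, KRT18 in the blastoid stood at 39.1 in shallow and 42.5 in deep barcodes. In the same blastoid barcodes KRT19 stood at 11.3 and 11.4, KRT8 at 15.3 and 19.1, and KRT7 at 0.638 and 0.771. On that scale, added after the data were seen, the summed keratins were 0.900 times (0.879 to 0.922) as high in shallow as in deep blastoid barcodes in place of 5.60 times. In the blastocyst the ratio was 1.17 (1.10 to 1.24) in place of 5.63, or 1.38 (1.30 to 1.47) without the deepest barcode. The CPM ratio of the summed keratins was thus 0.900 times that of the ribosomal protein genes in the blastoid.

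**Figure D2:**
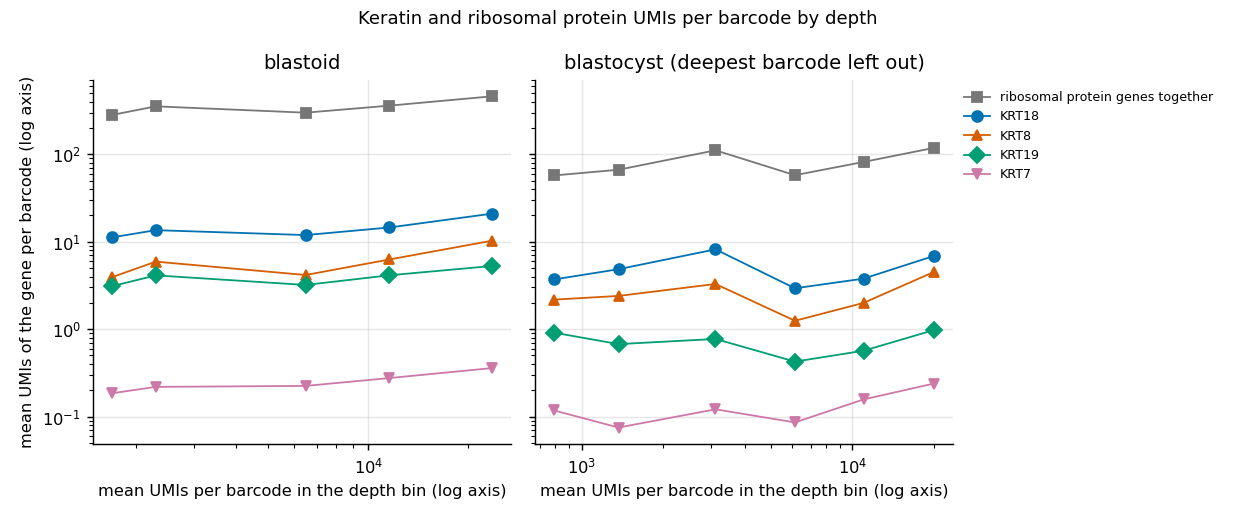
Mean UMIs per barcode of each keratin and of the ribosomal protein genes together against the mean total UMIs of the barcodes in 5 blastoid and 6 blastocyst depth bins, both axes logarithmic, without the 4 blastoid barcodes under 1000 UMIs and the deepest blastocyst barcode. In the blastoid KRT18 goes from 11.2 UMIs at a mean total of 1703 to 21.0 at a mean total of 23599.

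Across depth bins of the blastoid the keratin count per barcode changed less than the total did. Barcodes with 1000 to 2000 UMIs held 11.2 KRT18 UMIs, those with 2000 to 4000 held 13.6, those with 4000 to 8000 held 11.9, those with 8000 to 16000 held 14.6, and those above 16000 held 21.0. KRT18 in CPM went over the same bins from 6597 to 5899, 1838, 1256 and 889. Ribosomal protein UMIs were 282, 353, 299, 360.1 and 460.4. KRT8 had 3.95, 5.92, 4.16, 6.27 and 10.3 UMIs per barcode over these bins, and KRT19 lay between 3.11 and 5.28 and KRT7 between 0.185 and 0.359.

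Other cytoplasmic messengers were also higher in shallow barcodes. Between shallow and deep blastoid barcodes 64 of 64 ribosomal protein genes were at least 2-fold higher (median log2 ratio 2.66), as were 12 of 12 mitochondrially encoded genes (2.06) and 25 of 25 abundant cytosolic messengers (2.44), beside 2.44 for the keratins. PPIA, a cytosolic prolyl isomerase, was 6.95-fold and the actin-binding PFN1 6.52-fold higher. Genes that act with keratins went both ways, where 19% of all genes were higher and 44.1% lower: 3 of 18 desmosome and linker genes were higher and 3 lower (median 0.07), 7 of 20 adhesion genes were higher and 5 lower (0.06), and 2 of 16 epithelial transcription factors were higher and 5 lower (-0.63). The median over all genes was -0.73, so the desmosome and adhesion medians lay above it and below those of the keratins. Single members went both ways, with the tight-junction protein CLDN6 6.20-fold higher, PERP of desmosomes 4.68-fold higher, and PKP4, PARD3 and TEAD1 at 0.163, 0.155 and 0.106 of the deep level. In the blastocyst 63 of 64 ribosomal protein genes and 23 of 25 cytosolic messengers were higher in shallow barcodes, against 1 of 18 desmosome genes, where 25.3% of all genes were. VIM, the intermediate filament of mesenchymal cells, was also higher in shallow barcodes, 5.92-fold in the blastoid and 24.4-fold (14.2 to 42.0) in the blastocyst on 31 and 29 UMIs.

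Within trophectoderm-like nuclei of both libraries and within the unnamed blastoid nuclei, those with a larger ribosomal protein share also had higher KRT18 CPM. Blastocyst trophectoderm-like nuclei were divided at their median share. KRT18 was at 541 CPM (503 to 581) in the 119 nuclei of the lower part, whose share was 0.559%, and at 1277 CPM (1205 to 1352) in the upper part, whose share was 1.06%. KRT8 was at 349 and 612 CPM, KRT19 at 96.2 and 157 CPM, and KRT7 at 4.95 and 11.9 CPM with overlapping intervals. In blastoid trophectoderm-like nuclei KRT18 was at 1023 and 1745 CPM, and in the unnamed nuclei at 680 and 1423 CPM. The KRT18 counts of these blastoid parts went the other way. They were 1632 and 1438 UMIs in 77 trophectoderm-like nuclei each, at median totals of 19109 and 10409 UMIs. In 70 unnamed nuclei each they were 897 and 820 UMIs, at median totals of 16526 and 8140 UMIs. In hypoblast-like nuclei KRT18 was at 103 CPM (89.3 to 119) and 136 CPM (117 to 157), intervals that overlap, and KRT8 at 43.2 and 45.0 CPM. The summed keratins of hypoblast-like nuclei were at 178.7 CPM (160.3 to 198.7) and 224.1 CPM (199.8 to 250.5), intervals that do not overlap. In epiblast-like nuclei KRT18 was at 98.6 and 92.7 CPM with overlapping intervals. In shallow blastoid barcodes KRT18 was at 5963 CPM (5847 to 6081) and 6565 CPM (6435 to 6697), on 10061 and 9706 UMIs in 810 barcodes each. Depth moved with these parts: the median total was 10678 UMIs in the lower and 6940 in the upper part of the blastocyst trophectoderm-like nuclei, and the part of depth or of cytoplasmic RNA in the step was not tested. At a clustering resolution of 1 the trophectoderm-like nuclei of the blastocyst themselves split into 129 nuclei with KRT18 at 531 CPM and a ribosomal share of 0.585%, and 106 nuclei at 1273 CPM and 1.01%.

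**Figure D3:**
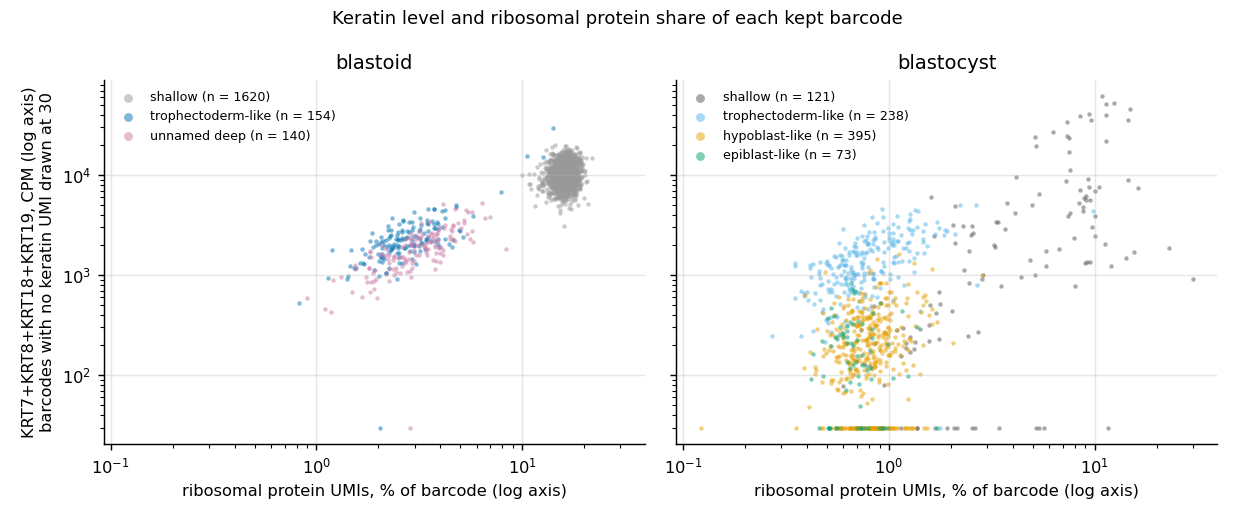
Summed level of the 4 keratins in CPM against the percentage of ribosomal protein UMIs for every kept barcode, both axes logarithmic, coloured by cluster, with barcodes that had no keratin UMI drawn at the bottom edge. In the blastoid the 1620 shallow barcodes form 1 compact cloud near 16% ribosomal protein UMIs, apart from both deep clusters; in the blastocyst the 121 shallow barcodes are spread over the whole range, and trophectoderm-like nuclei lie above hypoblast-like nuclei of the same ribosomal share.

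The shallow blastocyst barcodes were spread over a wide range of keratin levels. Among shallow blastocyst barcodes the summed keratins were at 814 CPM (680 to 967) in the 54 with under 2% ribosomal protein UMIs, 2039 CPM in the 30 with 2% to 5%, 11773 CPM in the 37 with 5% to 10% and 17990 CPM (16616 to 19448) in the 19 with 10% or more. The last was 22.1-fold (18.3 to 26.9) the first. In counts, the first held 2.39 keratin UMIs per barcode at a mean total of 2935, and the last held 33.3 at a mean total of 1852. By gene, the first and last values were 524 and 11880 CPM for KRT18, 215 and 4405 CPM for KRT8, and 63.1 (30.3 to 116) and 1620 CPM for KRT19. KRT7, with 2 and 3 UMIs, could not be compared. The shallow cluster is another set, of 121 barcodes, 32 of them with at least 4000 UMIs. Per 1000 ribosomal protein UMIs KRT18 stood at 68.7 in this cluster without the deepest barcode, between 110 in trophectoderm-like and 15.0 in hypoblast-like nuclei, but 10 barcodes held 66.5% of those KRT18 UMIs. At a clustering resolution of 1 the shallow barcodes formed 2 clusters, with KRT18 at 371 and 7082 CPM, the deepest barcode included. With that barcode included, markers of several lineages were present in it: GATA2 at 90.2 CPM, GATA6 at 523 CPM, HNF4A at 205 CPM and NANOG at 33.8 CPM. Summed, 19 of 21 trophectoderm markers with UMIs reached 2482 CPM there, with ELF5 and TKDP4 at 0, against 2836 CPM in trophectoderm-like and 681 CPM in hypoblast-like nuclei. Of that sum ATP1B3 gave 1121 and PTGS2 510 CPM, against 981 and 434 CPM in trophectoderm-like nuclei. GATA2 was at 90.2 against 473 CPM and HSD3B1 at 69.9 against 323 CPM. In the shallow cluster 26 of 30 hypoblast markers, with FOXA2, APOB, TTR and AFP at 0, reached 5241 CPM. There 16 of 17 epiblast markers, with FGF4 at 0, reached 1311 CPM. The hypoblast list was at 8502 CPM in hypoblast-like, 5630 CPM in trophectoderm-like and 5374 CPM in epiblast-like nuclei. The epiblast list was at 1802 CPM in epiblast-like, 1443 CPM in hypoblast-like and 850 CPM in trophectoderm-like nuclei. A hypoblast sum of 5241 CPM or an epiblast sum of 1311 CPM thus does not by itself name a lineage. The part of each lineage in the keratin level of the shallow cluster was not tested.

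Between the libraries, the keratins were higher in the blastoid by CPM. Over all kept barcodes KRT19 was 9.84-fold (9.08 to 10.7), KRT18 5.44-fold (5.26 to 5.62), KRT8 4.45-fold (4.24 to 4.66) and KRT7 3.57-fold (2.87 to 4.46) the blastocyst level. All 4 were past 2-fold, where 23.2% of 16901 genes were. In deep barcodes alone the ratios were 3.53 (3.19 to 3.91), 2.19 (2.09 to 2.29), 1.95 (1.83 to 2.08) and 1.44 (1.06 to 1.96), so 2 were past 2-fold, where 20% of 16108 genes were. The deepest blastocyst barcode held 24.5% of the keratin UMIs of all deep blastocyst barcodes. Without it the deep ratios were 5.18 (4.61 to 5.84) for KRT19, 2.85 (2.72 to 2.99) for KRT18, 2.52 (2.35 to 2.70) for KRT8 and 1.42 (1.05 to 1.94) for KRT7, so 3 were past 2-fold, and over all kept barcodes they were 13.4, 6.65, 5.43 and 3.53. The deep ratio of the sum went from 2.23 to 2.92. Per ribosomal protein UMI the order turned: the blastoid sum was 0.669 times the blastocyst sum over all kept barcodes and 0.749 times in deep ones, while KRT19 alone stayed higher in the blastoid, 1.19-fold and 1.18-fold. Without the deepest barcode the sum stood at 0.759 and 0.887 times, and KRT19 at 1.49 and 1.57. Ribosomal protein genes were higher in the blastoid in 64 of 64 cases over all barcodes (median log2 ratio 3.16), and the ratio between these libraries cannot be told apart from a difference in preparation, since each group is 1 library.

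Trophectoderm-like nuclei, compared between libraries by CPM, differed most in KRT7 and KRT19. KRT7 was 3.38-fold (1.98 to 6.07) and KRT19 2.68-fold (2.34 to 3.08) higher in the blastoid, both past 2-fold, where 18.3% of 12878 genes were. KRT18 was 1.53-fold (1.44 to 1.62) and KRT8 1.27-fold (1.17 to 1.38) higher. With nuclei gated on GATA2 and GATA3 in place of clusters, the ratio of the summed keratins was 1.01 (0.969 to 1.05) in place of 1.55, and KRT8 was at 0.870 of the blastocyst level. The 206 gated blastocyst nuclei held the deepest barcode, which lies in the shallow cluster; without it the ratio of the sum was 1.42 (1.36 to 1.49) and that of KRT8 1.18 (1.08 to 1.28). Per ribosomal protein UMI the ratio of the sum was 0.463, and KRT8, KRT18 and KRT19 stood at 0.380, 0.455 and 0.799, with KRT7 at 1.01 (0.589 to 1.81). Of the ribosomal protein genes 62 of 64 were at least 2-fold higher in the blastoid nuclei, with a median log2 ratio of 1.95, and their part in the keratin ratios was not tested. Among the partner genes, 2 of 18 desmosome genes were higher and 0 lower (median log2 ratio 0.34) and 4 of 20 adhesion genes were higher and 3 lower (-0.08), near the shares over all genes, 18.3% and 13.1% (median 0.07).

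The proportions among the keratins do not depend on the total used for scaling. Since reads come from the 3′ ends of transcripts, a ratio between genes is given only to compare clusters. KRT19 had 0.266 UMIs (0.232 to 0.303) per KRT8 UMI in blastocyst and 0.559 (0.512 to 0.611) in blastoid trophectoderm-like nuclei. It had 0.680 (0.607 to 0.763) in the unnamed nuclei and 0.739 (0.714 to 0.765) in shallow blastoid barcodes. The intervals of the last pair overlapped, and the blastoid trophectoderm-like value lay below that of the shallow barcodes. KRT18 had 1.84 UMIs (1.70 to 1.98) per KRT8 UMI in blastocyst and 2.20 (2.07 to 2.35) in blastoid trophectoderm-like nuclei. It had 2.30 (2.11 to 2.50) in unnamed nuclei and 2.56 (2.49 to 2.62) in shallow blastoid barcodes. Hypoblast-like nuclei were at 2.66 (2.19 to 3.24) on that measure and epiblast-like nuclei at 1.90 (1.27 to 2.87). Their KRT19 proportions, 0.434 (0.318 to 0.588) and 0.410 (0.214 to 0.751), overlapped that of the blastoid trophectoderm-like nuclei. The KRT7 proportion differed most between lineages. It was 40.0 UMIs (29.0 to 54.6) per 100 KRT8 UMIs in hypoblast-like and 23.1 (9.83 to 48.4) in epiblast-like nuclei of the blastocyst. In blastocyst trophectoderm-like nuclei it was 1.70 (1.00 to 2.70). In the 3 blastoid clusters it lay between 3.07 and 4.52. KRT8, its denominator, was itself 10.3-fold higher by CPM in blastocyst trophectoderm-like than in hypoblast-like nuclei. By CPM KRT7 changed least of the 4 keratins between these classes, with a ratio of 0.438 on 18 and 58 UMIs. The epiblast-like class was not stable: it held 16 nuclei at a clustering resolution of 1, with 0 UMIs of KRT7 against 12 of KRT8, a proportion of 0 with an interval up to 36.0. Of the 2 hypoblast-like clusters at that resolution the smaller stood at 14.8 (3.77 to 42.5) and the larger at 38.8 (23.7 to 61.9).

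**Figure D4:**
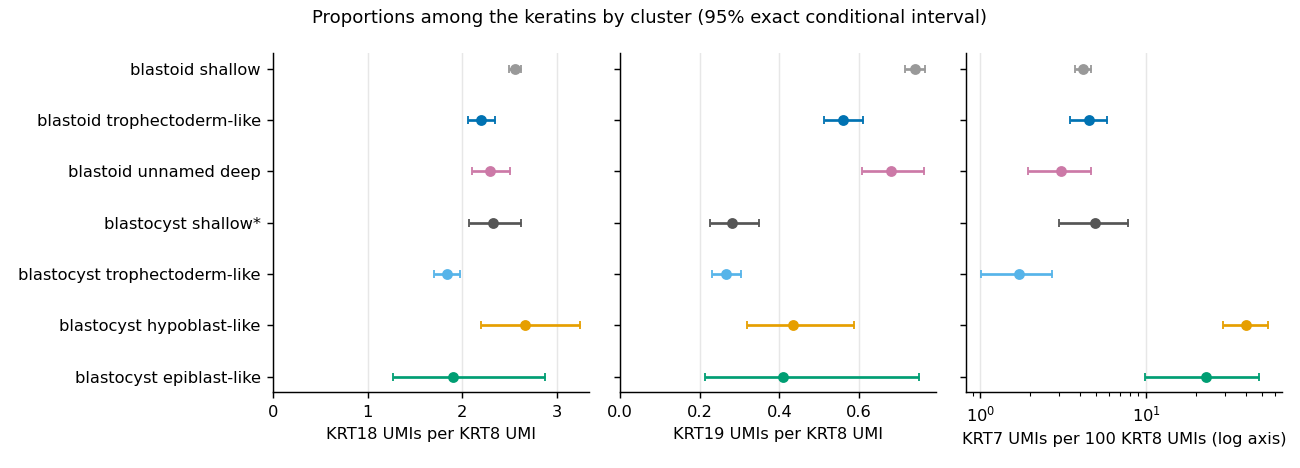
UMIs of KRT18 and of KRT19 per KRT8 UMI, and of KRT7 per 100 KRT8 UMIs (log axis), in the 7 clusters, with exact conditional 95% intervals; the asterisk marks the blastocyst shallow cluster without its deepest barcode. The 3 blastoid clusters have KRT19 proportions of 0.559 to 0.739, against 0.266 in blastocyst trophectoderm-like nuclei, and hypoblast-like nuclei have a KRT7 proportion of 40.0 against 1.70 in the latter.

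Detection was compared after each barcode had been thinned to 2000 UMIs. KRT18 was then found in 71.4% (65.1% to 77.1%) of 234 blastocyst trophectoderm-like nuclei, 22.5% (18.4% to 27.0%) of 387 hypoblast-like and 21.9% (13.1% to 33.1%) of 73 epiblast-like nuclei. KRT8 was found in 59.8%, 10.3% and 5.48% of them, and KRT19 in 18.8%, 6.98% and 4.11%. KRT7 was found in 0.855% (0.104% to 3.05%) of trophectoderm-like and 4.39% (2.58% to 6.94%) of hypoblast-like nuclei, close to the level of single UMIs. In the blastoid KRT18 was found in 92.0% of 150 trophectoderm-like and 80.6% of 139 unnamed nuclei, and KRT8 in 68.7% (60.6% to 76.0%) and 61.2% (52.5% to 69.3%), intervals that overlap. Whether these blastoid UMIs came from the nuclei or from free RNA was not tested either. KRT18 was found in all 687 shallow blastoid barcodes that had enough UMIs and KRT8 in 680 of them, with 933 left out as too shallow, and thinning left out 4 trophectoderm-like and 8 hypoblast-like blastocyst nuclei. The unthinned KRT18 shares were 97.1%, 60.8% and 60.3% in the 3 named blastocyst clusters and 99.4% and 99.3% in the deep blastoid clusters, at median depths of 8661, 7665, 10163, 14620 and 10993.5 UMIs.

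Many partner genes of keratin filaments were also higher in trophectoderm-like nuclei of the blastocyst, in a comparison where 12.6% of all genes were higher and 17.3% lower. Of 18 desmosome and linker genes 12 were at least 2-fold higher in trophectoderm-like than in hypoblast-like nuclei and 0 lower, with a median log2 ratio of 1.51, and the other 6 passed neither way. The desmosomal cadherin DSC2 was at 189 CPM against 3.64 CPM, a ratio of 51.9 (29.4 to 101), and the keratin linker EPPK1 had 127 UMIs against 3, a ratio of 59.8 (20.0 to 294). Of 20 adhesion genes 10 were higher, 10 passed neither way, and SPINT2 and OCLN had the lowest ratios, 0.579 and 0.682. Of 16 epithelial transcription factors 9 were higher, GATA2 by 65.0-fold. Of the 18 genes on that list 6 (TFAP2A, TFAP2C, GATA2, GATA3, CDX2 and TEAD4) are also trophectoderm markers used to name clusters, so this count, in either library, is no separate evidence. KLF5, which is also expressed by pluripotent cells, was at 548 and 708 CPM. Of the other 50 intermediate filament genes in the feature list, 5 had at least 100 UMIs over both libraries. Of these 2 were at least 2-fold lower in trophectoderm-like nuclei and 0 higher, with a median log2 ratio of -0.25 against -0.21 over all genes. The neural and progenitor filament NES was the lowest, at 5.56 CPM against 79.1 CPM, a ratio of 0.0703 (0.0369 to 0.122), and the lamin LMNB1 was at 107 and 111 CPM.

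Over the 7 clusters of both libraries, the log2 levels of KRT8 and KRT18 had a Pearson r of 0.996 with each other, and among 8563 genes each was the most alike to the other. The next for KRT8 were PRSS23, a secreted protease, RAB25, a trafficking GTPase of epithelia, MCFD2 and LGALS3, and for KRT18 PRSS23, SFN, an epithelial 14-3-3 protein, LGALS3 and RAB25, with r between 0.985 and 0.996. KRT19 was most like ATP6V0C, TXNDC5, CLDN4, FABP5 and KRT18 (0.986 to 0.995). KRT7 was most like ATIC, GADD45GIP1, TCP1, RPL22L1 and C24H18orf21 (0.984 to 0.987), and KRT8, KRT18 and KRT19 had r of 0.671, 0.713 and 0.733 with it. The clusters of a library share its depth and its ribosomal share, so these values describe 7 points and carry no test.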

How the data were processed

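Single-nucleus libraries of blastoids and day 8 blastocysts were made with a droplet-based 3′ kit, per the labels' protocols. The authors deposited UMI counts per gene and barcode. The submitters' processing notes name Cell Ranger 7.1.0 and Seurat 4.3.0, while the headers of the deposited counts name Cell Ranger 7.2.0. Genome build, annotation and cell calling are not given in the sources used here, and no coordinates or sequences were used.

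Barcodes with at least 500 genes and under 10% mitochondrial UMIs were kept, and the highest Scrublet scores removed (0.8% per 1000 barcodes: 30 in the blastoid, 6 in the blastocyst). This left out 43 and 117 barcodes. Each library was clustered alone with scanpy 1.11.5 (2000 variable genes without markers and keratins, 30 components, 15 neighbours, Leiden resolution 0.5). A cluster whose median was at least 4000 UMIs was named when at least 5 markers, with at least 100 UMIs in the compared sums, were 1.5-fold above the other deep clusters and 1.5 times as many as for any other class. This rule was settled after clusters were seen. Without doublet removal the epiblast-like cluster would be unnamed. The result of a lower minimum of markers is not reported here.

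Counts were summed per cluster, since nuclei are not replicates. Ratios have exact conditional intervals, levels Poisson and shares Clopper-Pearson intervals, at 95%. The calculation was tested on simulated data. A gene counted as higher or lower at 2-fold with at least 20 UMIs in the compared sums, and a count under 3 was set to 3 for list ratios. List genes needed 100 UMIs over both libraries; for each list the 2 highest and 2 lowest could be named, and for each keratin the 5 genes most alike among those with at least 200 UMIs. The list of nuclear-retained RNAs matched 0 features. Members and lists were chosen with earlier results of these data known. Alternatives covered filters, totals, depth splits, cluster resolutions 0.3 and 1, marker gates and thinning depths.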

Additional observations from a re-analysis of the deposited data

Results flagged for a closer look

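KRT18 was also present in barcodes that the filters had removed, which enter no comparison of the report; only the alternative without a barcode filter takes them in. It was at 5276 CPM (4823 to 5760) in the 43 blastoid barcodes left out, against 3282 CPM in those kept, and at 1723 CPM (1536 to 1926) in the 117 blastocyst barcodes left out, against 604 CPM in those kept. Ribosomal protein genes made up 13.4% and 3.44% of the UMIs left out. Mitochondrial genes made up 14.9% of those of the blastocyst.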

How the results depend on the processing

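No paired analysis was possible because each group is 1 library, and for the same reason there was no replicate to leave out. Values here are log2 ratios of the summed keratins unless said otherwise. Over all alternatives, 32 values of the sum or of shares stayed within their counting interval, 28 moved and 5 that were past 2-fold changed sign; for single genes 148 stayed, 84 moved and 16 that were past 2-fold changed sign (24 of any size). Scaling per ribosomal protein UMI and leaving out the deepest blastocyst barcode were chosen after seeing the data.

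Per ribosomal protein UMI, blastoid over blastocyst went from 2.47 to -0.58 over all kept barcodes (KRT7 -1.21, KRT8 -0.90, KRT18 -0.61) and from 1.16 to -0.42 in deep ones (KRT18 -0.45). Shallow over deep went from 2.49 to -0.15 in the blastoid (KRT7 -0.27, KRT8 -0.32, KRT18 -0.12, KRT19 -0.0059) and from 2.49 to 0.22 in the blastocyst (KRT7 -0.34, KRT19 -0.075). Trophectoderm-like blastoid over blastocyst went from 0.64 to -1.11 (KRT19 -0.32). With the deepest blastocyst barcode also left out, the first was -0.40 (KRT7 -1.35, KRT8 -0.72, KRT18 -0.43), the deep one -0.17 (KRT18 -0.21) and shallow over deep in the blastocyst 0.47 (KRT7 -0.51). The cause was not tested.

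Without the deepest blastocyst barcode blastoid over blastocyst was 2.77 over all kept and 1.55 in deep barcodes, and shallow over deep in the blastocyst was 2.88. Split at 2000 UMIs, the deep comparison was 2.15 and shallow over deep 1.38 in the blastoid and 2.85 in the blastocyst. Split at 8000 UMIs, the deep comparison was 1.04 and shallow over deep in the blastocyst 0.57. With that barcode also left out, the deep comparison was 2.48 and 1.59 at these 2 splits and shallow over deep in the blastocyst 3.18 and 1.12. Marker gates gave 3.43 for trophectoderm-like over hypoblast-like (2.84 by cluster). For trophectoderm-like over deep blastoid nuclei with 0 UMIs of GATA2, GATA3, GATA4 and HNF4A they gave 0.13 (0.47 over the unnamed cluster). For trophectoderm-like blastoid over blastocyst they gave 0.013 (0.64). Without the deepest barcode, which these gates take in, the first was 2.94 and the last 0.51, so that barcode accounts for most of both shifts. Centred on the median of all genes, the values were 2.61 over all kept barcodes, 3.18 and 2.62 for shallow over deep in blastoid and blastocyst, and 3.02 for trophectoderm-like over hypoblast-like. With ribosomal protein and mitochondrial genes left out of totals, they were 2.58 over all kept barcodes and 2.73 for shallow over deep in the blastoid, and without a barcode filter the first was 2.42. The share of blastocyst trophectoderm-like nuclei with any keratin UMI was 88.5% after thinning to 2000 UMIs, 73.4% at 1000 and 96.4% at 4000. KRT7 rested on 18 UMIs in blastocyst trophectoderm-like nuclei.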
